A study of Mus musculus with 7 samples.

Results

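Small RNAs of prepuberal mouse testis were compared before and after 12 days of organ culture. The start library, T6, was made from testes of the outbred CD1 strain at 6.5 dpp (days post-partum, given as 6 in a second label). The cultured libraries were T6-12K and T6-12A, made from testes of the same age kept for 12 days in medium with KSR (knockout serum replacement) or with AlbuMAX I (a lipid-rich bovine serum albumin). These are 3 of the 7 libraries of the series, and all 331 listed mature miRNAs were taken. An explant of this age was a whole testis without its tunica albuginea, laid on an agarose block at the boundary of medium and gas. There was 1 library for each condition, the number of testes behind a library is not given in the sources used here, and uncultured testis of the age reached in culture was not analysed here. Development in these 12 days and the effect of culture therefore cannot be told apart, and no difference between libraries was tested. The change of each miRNA in each medium, and whether both media moved it alike, is described.

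MicroRNAs are short RNAs cut from hairpin precursors, and they guide Argonaute proteins to messenger RNAs that pair with their seed, the bases near the 5′ end. MicroRNAs that share a seed are grouped in families, and neighbouring hairpins are often transcribed together as a cluster. At the age of T6 the testis tubules hold Sertoli cells and spermatogonia, and meiosis begins in the following days. The miR-34 and miR-449 family is known for its high level in meiotic and later germ cells, a large X-linked cluster for its expression in testis, and the imprinted Dlk1-Dio3 cluster for its expression in embryonic and young tissue.

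The sequences of the miRNAs on which the results turn are shown 5′ to 3′, with the seed (bases 2 to 8) in capitals. They are RefSeq sequences of GRCm38.p6, in which 288 of the 331 miRNAs were matched by name. The first 4 share a seed and belong to the family of miR-34 and miR-449, in which miR-34c-5p had no entry.
miR-34b-5p: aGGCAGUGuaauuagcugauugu
miR-449a-5p: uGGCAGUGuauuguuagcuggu
miR-449c-5p: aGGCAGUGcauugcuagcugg
miR-34a-5p: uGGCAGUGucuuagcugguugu
The next 7 were higher in both media and fall into seed families of miR-146, miR-221 with miR-222, and miR-29, with miR-21a-5p apart.
miR-146a-5p: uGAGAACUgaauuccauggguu
miR-146b-5p: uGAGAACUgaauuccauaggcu
miR-221-3p: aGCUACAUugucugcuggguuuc
miR-222-3p: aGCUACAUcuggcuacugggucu
miR-29a-3p: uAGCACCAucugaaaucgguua
miR-29c-3p: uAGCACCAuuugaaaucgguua
miR-21a-5p: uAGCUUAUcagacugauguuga
The largest ratio belonged to a miRNA that shares its seed with none of these.
miR-7210-5p: uAACAUUGuagacaggcacaaag
Of the miRNAs that were lower, let-7e-5p is shown beside let-7a-5p, from which it differs by 1 base, and 3 members of the Dlk1-Dio3 cluster follow.
let-7e-5p: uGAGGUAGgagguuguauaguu
let-7a-5p: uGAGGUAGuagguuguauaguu
miR-127-3p: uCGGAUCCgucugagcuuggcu
miR-381-3p: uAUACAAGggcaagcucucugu
miR-410-3p: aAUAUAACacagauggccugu
The last 8 bear on the difference between the media. miR-10a-5p and miR-10b-5p differ by 1 base outside the seed, and the final 3 are encoded on the X chromosome.
miR-10b-5p: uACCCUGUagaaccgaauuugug
miR-10a-5p: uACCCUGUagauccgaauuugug
miR-196b-5p: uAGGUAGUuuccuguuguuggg
miR-141-3p: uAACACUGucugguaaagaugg
miR-205-5p: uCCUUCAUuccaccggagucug
miR-465c-3p: gAUCAGGGccuuucuaaguaga
miR-743b-3p: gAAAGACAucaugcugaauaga
miR-881-3p: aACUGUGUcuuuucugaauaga
Counted from the 5′ end of the first miRNA named, let-7a-5p to let-7e-5p is U9G, miR-10b-5p to miR-10a-5p is A12U, and miR-146a-5p to miR-146b-5p is G18A and U21C. Reads with an error at such a base can be counted for the relative, so values within these pairs are not fully separate.

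The deposited signals corresponded to 13363594 reads on listed miRNAs in T6, 9934580 in T6-12K and 10793767 in T6-12A. Levels are given as CPM, the reads of a miRNA per 1000000 miRNA reads of its library, and changes as the log2 ratio of the CPM of a culture to that of T6. A miRNA listed at 0 was set to 5 reads, the lowest number above 0 in T6, so that its ratio is a bound. In each library, miR-10b-5p and miR-143-3p together held most of the reads, with 56.3% in T6, 75.7% in T6-12K and 67.7% in T6-12A. The other 329 miRNAs held 43.7% of the reads in T6, 24.3% in T6-12K and 32.3% in T6-12A. The median log2 ratio to T6 was -1.15 in T6-12K and -0.62 in T6-12A. Median-of-ratios factors, which centre the typical miRNA, raise each log2 ratio by 1.17 in T6-12K and by 0.65 in T6-12A. For most counts and list medians that this changes, the value after that scaling (called centred below) stands beside the CPM value. Other ratios and levels are given by CPM alone, and some of them change direction with centred values. Which of the scalings is nearer to the amount per testis cannot be told from these files.

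In both media, 27 miRNAs were at least 2-fold higher than in T6 (8.23% of the 328 with a ratio in both) and 106 were at least 2-fold lower (32.3%). With centred values these numbers were 50 (15.2%) and 44 (13.4%), so the excess of lower over higher miRNAs went with the scaling. Each of the 4 other scalings raises every ratio in both media. The 27 higher miRNAs therefore had to pass under each of them, which says nothing about how firm they are. Of the 106 lower ones, 44 passed under each. Both ratios of a miRNA use the same T6 library, and an error in T6 would move both. Of the 113 miRNAs whose mean over the 3 libraries reached 100 CPM, 8 were higher and 20 were lower in both media (17.7%). Below that level 86 of 218 were lower in both (39.4%). Changes past 2-fold in one medium, with a change under 1.4-fold in that direction in the other, were fewer: 6 miRNAs were higher (1.83%) and 35 lower (10.7%) in T6-12K, and 7 were higher (2.13%) and 11 lower (3.35%) in T6-12A. With centred values these were 9 (2.74%), 14 (4.27%), 3 (0.915%) and 18 (5.49%), and in the same order only 4, 7, 0 and 5 miRNAs were in the class under both scalings. At the threshold, miR-132-3p stood just inside the higher group with a smaller log2 ratio of 1.03 and miR-429-3p just outside with 0.95, and miR-15b-5p and miR-1198-5p stood on either side of the lower threshold with -1.01 and -0.99.

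**Figure D1:**
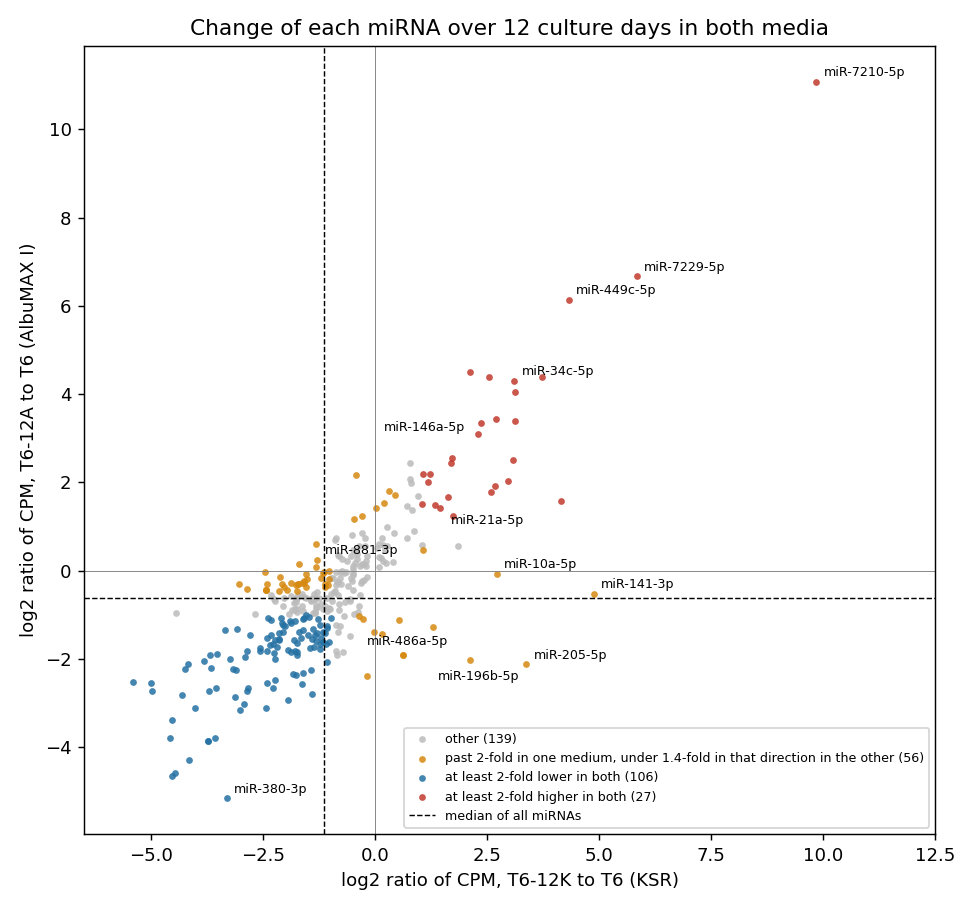
Each point is 1 of 328 miRNAs, with its log2 ratio of CPM to T6 in T6-12K on the x axis and in T6-12A on the y axis; dashed lines mark the medians of all miRNAs, at -1.15 and -0.62. The 27 miRNAs higher in both media reach up to miR-7210-5p at 9.84 and 11.08, and miR-10a-5p, miR-141-3p, miR-196b-5p and miR-205-5p lie to the right of 0 on the x axis and below 0 on the y axis.

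The miR-34 and miR-449 family was higher in both media. Its 7 measured members were above T6 in each culture, with a median log2 ratio of 2.53 in T6-12K and 4.31 in T6-12A, and 5 of them passed 2-fold in both, against 8.23% of all miRNAs. After centring all 7 did, against 15.2%. miR-34c-5p, which is abundant in meiotic and haploid germ cells, had 801 reads (59.9 CPM) in T6, 5104 (514 CPM) in T6-12K and 12875 (1193 CPM) in T6-12A. Its log2 ratio was 3.10 in T6-12K (95% interval 2.99 to 3.21, for counting error only) and 4.31 in T6-12A (4.21 to 4.42). miR-34b-5p, from a hairpin at chr9:51103562-51103645 on the minus strand (within an intron of Btg4, on its opposite strand), went from 3.82 CPM to 33.0 and 63.7 CPM. miR-449a-5p and miR-449c-5p lie on chromosome 13 in an intron of Cdc20b, a gene of multiciliated cells. miR-449a-5p had 8.01, 46.3 and 166 CPM in T6, T6-12K and T6-12A. miR-449c-5p was near the lowest level in T6, with 12 reads, and had 178 and 683 reads in the cultures. The AlbuMAX I library was thus the higher of the cultures for each of these 4. By CPM, the members below 2-fold in at least 1 medium were miR-34a-5p, the relative with a wide expression outside germ cells, with log2 ratios of 0.27 and 0.99, and miR-34c-3p, the minor arm, with 0.43 and 1.72 from 18, 18 and 48 reads. Over the 4 miRNAs that share the printed GGCAGUG seed, the median log2 ratio was 2.82 in T6-12K and 4.22 in T6-12A. In testis as a whole, more cells of a type and more RNA per cell cannot be told apart.

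The largest ratio of all was that of miR-7210-5p, encoded at chr14:24088877-24088930 on the plus strand, outside other annotated genes. It had 5 reads (0.374 CPM) in T6, 3403 (343 CPM) in T6-12K and 8771 (813 CPM) in T6-12A. The log2 ratios of 9.84 and 11.08 had counting intervals of 8.61 to 11.46 and 9.86 to 12.71, wide because of the 5 reads. In testis of adult mice of 2 months, sequenced as 1 library, it stood at 8980 CPM, and miR-34c-5p at 20424 CPM. For miR-7229-5p no read was listed in T6, against 213 reads in T6-12K and 414 in T6-12A, so it was at least 57.3-fold and 103-fold higher, counted against 5 reads. miR-468-5p and miR-7214-5p showed the same order at lower levels, with 0, 49 and 85 reads and with 0, 19 and 41 reads.

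Of 7 miRNAs listed for hypoxia and inflammation, 6 were at least 2-fold higher in both media and none was lower, against 8.23% of all miRNAs. After centring all 7 were higher in both, against 15.2%. miR-21a-5p, induced in many injured or stressed tissues, was the most abundant, with 2018 CPM in T6, 5522 CPM in T6-12K and 5445 CPM in T6-12A. Here the cultures lay close together, with log2 ratios of 1.45 and 1.43. Its minor arm miR-21a-3p went from 22 reads to 137 and 102. miR-146b-5p had 841, 2571 and 2695 CPM, and its relative miR-146a-5p, a target of NF-kB that restrains its signalling, had 24.8, 120 and 211 CPM. Their log2 ratios were 1.61 and 1.68 for miR-146b-5p, and 2.28 and 3.09 for miR-146a-5p. miR-210-3p, induced by the hypoxia-inducible factor, had 71.5, 178 and 202 CPM, and was thus 2.50-fold and 2.82-fold higher. miR-132-3p went from 102 reads to 155 and 236. The one member outside the threshold by CPM, miR-210-5p, had log2 ratios of 0.70 and 1.46.

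miR-221 and miR-222 are encoded less than a kilobase apart on the X chromosome and are known to target the Kit receptor of spermatogonia. All 3 measured arms were at least 2-fold higher in both media, by CPM and after centring. Over all miRNAs that share was 8.23% by CPM and 15.2% after centring. miR-221-3p had 148 reads in T6, 706 in T6-12K and 450 in T6-12A (11.1, 71.1 and 41.7 CPM), and miR-222-3p had 50.4, 168 and 119 CPM. In this pair the KSR library was the higher culture, against the order seen for miR-34c-5p: the log2 ratio of T6-12A to T6-12K was -0.77 (counting interval -0.94 to -0.60) for miR-221-3p and -0.50 (-0.61 to -0.40) for miR-222-3p. Both measured members of the miR-29 family, which targets collagens and DNA methyltransferases, were at least 2-fold higher in both media too, against the same shares. miR-29a-3p had 251, 434 and 929 reads and miR-29c-3p had 26, 63 and 124. miR-375-3p, known from endocrine cells, had 99.8 CPM in T6, 210 CPM in T6-12K and 455 CPM in T6-12A. miR-24-3p was higher with log2 ratios of 1.18 and 2.01, and miR-3074-5p with 1.68 and 2.43. The mature miR-3074-5p lies opposite miR-24-3p at both of its positions, on chromosomes 8 and 13, and whether the counting used strand is not given in the sources used here.

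**Figure D2:**
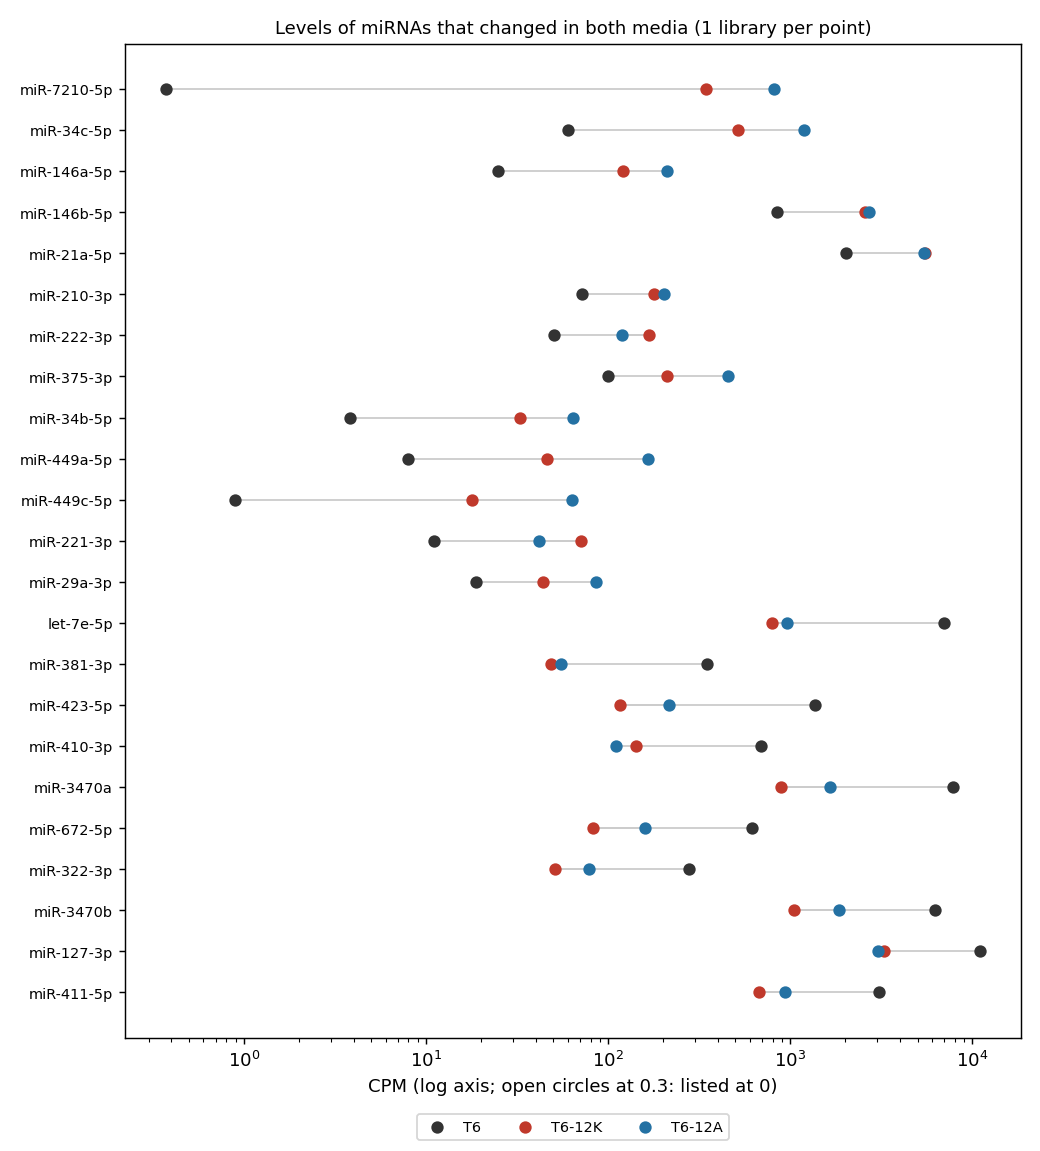
CPM (log axis) of 23 miRNAs that changed past 2-fold in both media, with 1 point for each of T6, T6-12K and T6-12A. From miR-7210-5p to miR-29a-3p both culture points lie to the right of T6, and from let-7e-5p to miR-411-5p both lie to its left.

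The Dlk1-Dio3 cluster was lower in both media. Of its 38 measured miRNAs, 34 were at least 2-fold lower in both, against 32.3% of all miRNAs. By CPM all 38 were below T6 in both, as were 263 of 329 miRNAs in T6-12K and 239 of 329 in T6-12A. Relative to the median of all miRNAs, 4 members lay above it in T6-12K and 2 in T6-12A. The summed level went from 18702 CPM in T6 to 5052 CPM in T6-12K and 5237 CPM in T6-12A, and the median log2 ratio was -2.01 and -1.92. After centring, the median stayed negative, at -0.84 and -1.27. Then 17 of the 38 members stayed at least 2-fold lower in both, against 13.4% of all miRNAs. The 4 members outside the 2-fold group were miR-136-5p, miR-376b-5p, miR-379-5p and miR-666-5p. In the direct ratio of the cultures, 20 of 37 members were higher in T6-12A (54.1%, against 76.3% of all miRNAs), with a median log2 ratio of T6-12A to T6-12K of 0.06 by CPM and -0.46 after centring, against 0.64 and 0.12 over all miRNAs. miR-127-3p, which lies opposite Rtl1, a retrotransposon-derived gene expressed from the paternal allele, was the most abundant, with 146654 reads in T6, 32584 in T6-12K and 32839 in T6-12A. Its log2 ratios were -1.74 and -1.85, and -0.57 and -1.20 after centring, so that in T6-12K the centred fall was below 2-fold. miR-410-3p, in an exon of the noncoding RNA Mirg, had 694, 142 and 111 CPM. miR-381-3p had 347, 48.3 and 55.1 CPM and the largest fall of the cluster among the abundant miRNAs, with log2 ratios of -2.84 and -2.65. miR-411-5p had 3087, 671 and 931 CPM, and its minor arm miR-411-3p went from 324 reads to 10 and 19. On chromosome 12, 10 of 11 miRNAs between 109585789 and 109595388 and 19 of 21 between 109709060 and 109743795 were in the 2-fold lower group by CPM. After centring, 1 of the 11 and 11 of the 21 stayed in it. The group held 32.3% of all miRNAs by CPM and 13.4% after centring. The stretch of 11 was thus not above the share of all miRNAs after centring.

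Ranked by the smaller of both ratios, let-7e-5p had the largest shared fall where the mean level reached 100 CPM, while miR-423-5p fell more in T6-12K and, after centring, led by the smaller ratio too. let-7e-5p had 92848 reads (6948 CPM) in T6, 7834 (789 CPM) in T6-12K and 10352 (959 CPM) in T6-12A, and was thus 8.81-fold and 7.24-fold lower. The log2 ratios were -3.14 and -2.86, and -1.97 and -2.21 after centring. let-7e-5p stood apart from its family, whose 9 members share the seed GAGGUAG and restrain growth and pluripotency genes. The family median was -1.38 and -0.61, and it turned to -0.20 and 0.04 after centring, so no direction is given for the family. let-7a-5p had log2 ratios of -1.44 and -0.66, let-7f-5p -1.18 and -0.87, and let-7g-5p -0.44 and 0.44. On chromosome 17, miR-99b, let-7e and miR-125a lie in an intron of Spaca6. By CPM the major arms of these neighbours fell less than let-7e-5p: miR-99b-5p had -1.03 and -0.84, and miR-125a-5p -0.75 and 0.00. Their minor arms were at least 2-fold lower in both media by CPM, with -1.70 and -1.39 for miR-99b-3p and -1.61 and -1.10 for miR-125a-3p. Neither stayed so after centring.

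Large shared falls were also found outside these groups. miR-423-5p, in an intron of Nsrp1, had 1360 CPM in T6, 116 CPM in T6-12K and 217 CPM in T6-12A, and its partner arm miR-423-3p changed less, with log2 ratios of -1.79 and -0.90 against -3.55 and -2.65. miR-672-5p, in an intron of the X-linked gene Nexmif, had 618, 82.9 and 159 CPM. miR-322-3p, from the X-linked cluster known for cell cycle arrest in muscle, had 277, 51.2 and 78.8 CPM. miR-3470a had 7790, 893 and 1653 CPM, and miR-3470b 6238, 1045 and 1846 CPM. Each of these 5 was lower in T6-12K than in T6-12A and remained at least 2-fold below T6 in both after centring. Further falls led to 0 in both cultures. miR-467a-5p had 157 reads in T6, miR-370-3p 149, miR-451a 120, miR-144-5p 89, miR-3099-3p 89, miR-466b-3p 55 and miR-144-3p 17. A value of 0 may hide up to 4 reads. The bound for miR-451a, the red cell miRNA made by Ago2 without Dicer, was at least 17.8-fold lower in T6-12K and 19.4-fold lower in T6-12A.

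**Figure D3:**
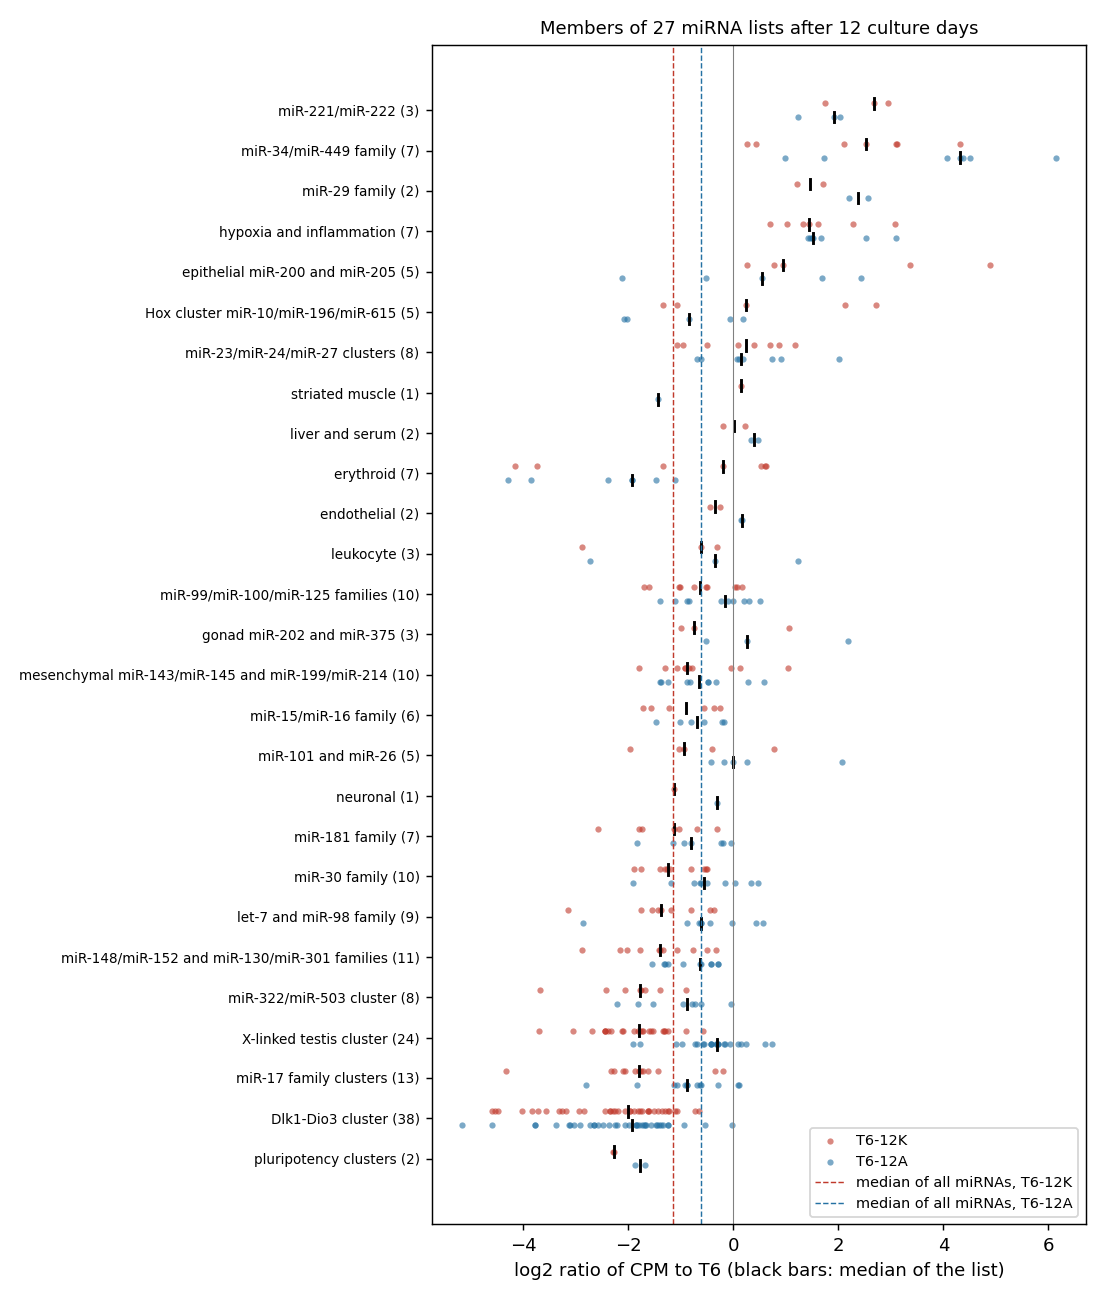
Log2 ratio of CPM to T6 of the measured members of 27 miRNA lists, with their number in brackets, in T6-12K and T6-12A; black bars are list medians and dashed lines the medians of all miRNAs. The miR-34 and miR-449, miR-221 and miR-222, miR-29 and hypoxia lists lie to the right of 0 in both media, the Dlk1-Dio3 list lies to the left, and the X-linked list is spread around -1.79 in T6-12K and -0.32 in T6-12A.

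Among the remaining families, both pluripotency miRNAs were lower under CPM and after centring: miR-293-5p went from 180 reads to 28 and 40, and miR-295-3p from 224 to 34 and 57, with list medians of -2.27 and -1.76, and of -1.10 and -1.12 after centring. The miR-17 family clusters, which promote proliferation, had 4 of 13 members in the lower group, 0 in the higher group, and medians of -1.80 and -0.87. After centring 1 of 13 stayed lower and the medians were -0.63 and -0.23. The cluster of miR-322 and miR-503 had 3 of 8 lower, with medians of -1.77 and -0.88, and 2 of 8 with medians of -0.59 and -0.23 after centring. The miR-148, miR-152, miR-130 and miR-301 families had 4 of 11 lower, the miR-99, miR-100 and miR-125 families 2 of 10, the miR-30 family 2 of 10, the miR-181 family 2 of 7 and the miR-15 and miR-16 family 1 of 6, and none of these had a member in the higher group. Over all miRNAs the share was 32.3%. After centring, only 1 member of these 5 lists was lower in both, in the miR-181 family, and 1 member of the miR-99, miR-100 and miR-125 list was higher in both. Of the miR-101 and miR-26 list, none of 5 changed past 2-fold in both media by CPM, and miR-101a-3p had the largest ratios, with 1170 CPM in T6, 1995 CPM in T6-12K and 4929 CPM in T6-12A. After centring its log2 ratios were 1.94 and 2.72, past 2-fold in both.

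By CPM, miR-10a-5p was higher in the KSR culture alone. miR-10a, which lies in the Hoxb cluster on chromosome 11, had 57860 reads (4330 CPM) in T6, 282010 (28387 CPM) in T6-12K and 44658 (4137 CPM) in T6-12A. The log2 ratio was 2.71 in T6-12K and -0.07 in T6-12A. After centring these were 3.88 and 0.58, and since 0.58 exceeds the 1.4-fold limit, miR-10a-5p left the class. miR-10b-5p, the 1-base relative in the Hoxd cluster, had 459720, 544136 and 520447 CPM, with log2 ratios of 0.24 and 0.18. A second Hox miRNA, miR-196b-5p in an intron of Hoxa9, moved in opposite directions: 384 reads in T6, 1240 in T6-12K and 76 in T6-12A. miR-205-5p, a marker of stratified epithelium, had 27, 208 and 0 reads, and miR-138-5p 15, 27 and 0. By CPM these 3 were the miRNAs past 2-fold in opposite directions. After centring there were 4, with miR-486a-5p and miR-486b-5p in and miR-138-5p out. miR-141-3p, of the epithelial miR-200 family, had 57, 1248 and 32 reads (4.27, 126 and 2.96 CPM), a log2 ratio of 4.88 in T6-12K and -0.52 in T6-12A. The other epithelial miRNAs did not share this order: miR-200a-3p had 7.78, 13.3 and 42.2 CPM, miR-200b-3p 40.2, 48.3 and 58.6 CPM, and miR-429-3p 50.2, 97.1 and 163 CPM. The summed epithelial list of 5 was 104 CPM in T6, 305 CPM in T6-12K and 266 CPM in T6-12A. The part of epithelial cells outside the tubules in these values was not tested.

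The X-linked testis cluster differed between the media. Of its 24 measured miRNAs, 15 were lower in T6-12K and not in T6-12A, against 10.7% of all miRNAs, 3 were lower in both, and none was higher in either class. After centring, 7 members were in the class lower in T6-12K alone (against 4.27% of all miRNAs), and 4 of the 15 were among them: the 3 identical arms of miR-465 and miR-743a-3p. Their summed level was 52713 CPM in T6, 18772 CPM in T6-12K and 50265 CPM in T6-12A. In the direct ratio of T6-12A to T6-12K, which uses no start library, 22 of 23 members were higher in T6-12A by CPM (95.7%, against 76.3% of all miRNAs). Their median log2 ratio was 1.62, against 0.64 over all miRNAs. After centring, the median against T6 was -0.62 in T6-12K and 0.33 in T6-12A, so that the direction of the AlbuMAX I change depends on the scaling while the difference between the media remained at 1.10. The most abundant member, miR-470-5p, had 21742, 8705 and 23165 CPM. miR-871-3p had 17386, 6070 and 15299 CPM, miR-741-3p 4960, 1686 and 4719 CPM, and miR-881-3p 2785, 1132 and 3320 CPM. miR-743b-3p had 166, 66.1 and 251 CPM, a log2 ratio of -1.33 in T6-12K and 0.60 in T6-12A. In each, T6-12K was the low library by CPM, and T6 and T6-12A lay within 1.51-fold of each other. After centring, the T6-12K log2 ratios of these 5 were between -0.38 and -0.13, and none was in the class lower in T6-12K alone. miR-465b-3p and miR-465c-3p have identical mature sequences, as does miR-465a-3p, and were each listed with 2485, 341 and 1490 reads, so they count as 1 measurement. In the hairpins between 66776757 and 66814025 on chromosome X, 11 of 18 miRNAs were by CPM in the class lower in KSR alone, against 10.7% of all miRNAs. Of these 11, only miR-743a-3p stayed in the class after centring. Other abundant miRNAs of this class were miR-140-3p, which is known from cartilage, with 170, 45.9 and 140 CPM, and let-7b-5p, miR-26b-5p, miR-181a-5p and miR-340-5p, with T6-12K log2 ratios between -1.75 and -1.04. After centring, none of these, miR-140-3p included, was at least 2-fold lower in T6-12K. There miR-140-3p had a log2 ratio of -0.72, while miR-181a-5p and miR-26b-5p turned to 0.13 and miR-340-5p to 0.05.

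**Figure D4:**
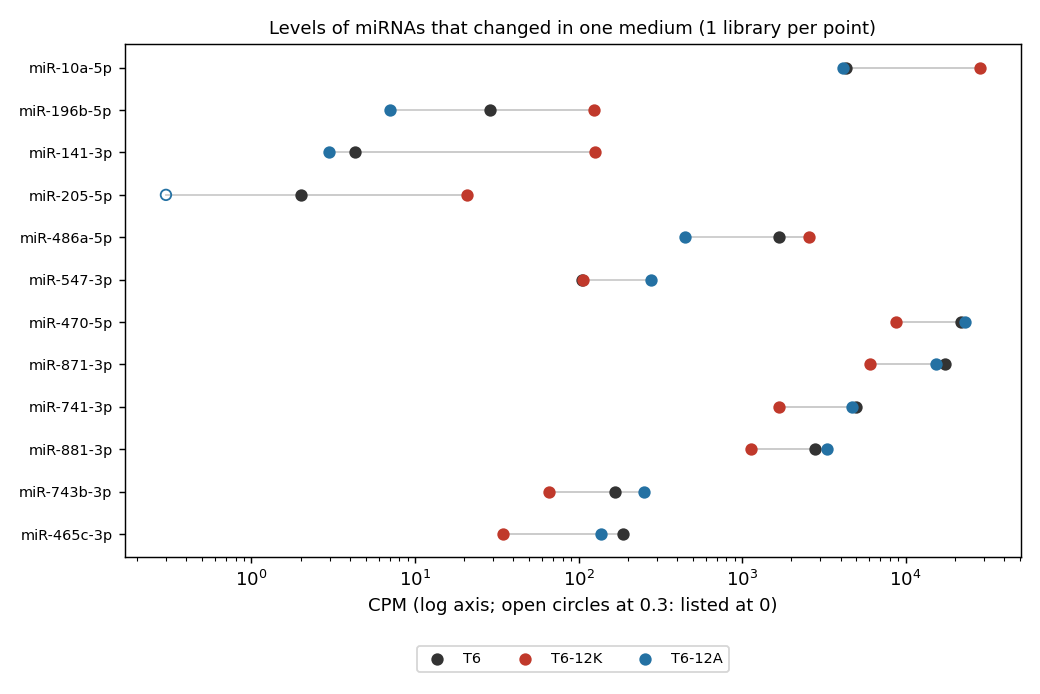
CPM (log axis) of 12 miRNAs that changed past 2-fold by CPM in one medium or, for miR-196b-5p and miR-205-5p, in opposite directions in both. There is 1 point for each of T6, T6-12K and T6-12A and an open circle for a value listed at 0. T6-12K is the highest library from miR-10a-5p to miR-486a-5p and the lowest for the 6 X-linked miRNAs from miR-470-5p down, where T6 and T6-12A lie close together.

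Among miRNAs lower by CPM in the AlbuMAX I culture alone, the most abundant was miR-486, a red cell and muscle miRNA. miR-486a-5p had 22418 reads in T6, 25370 in T6-12K and 4800 in T6-12A (1678, 2554 and 445 CPM). miR-486b-5p comes from the opposite strand of the same locus, its values were nearly the same (1670, 2571 and 442 CPM), and their reads cannot be told apart. After centring, the log2 ratios of miR-486a-5p were 1.78 in T6-12K and -1.27 in T6-12A, past 2-fold in opposite directions. The minor arms followed with few reads: miR-486a-3p had 123, 80 and 19, and miR-486b-3p 32, 34 and 12. The other erythroid miRNAs were at 0 in both cultures, as given for miR-451a, miR-144-5p and miR-144-3p, so the list of 7 did not move as one, with sums of 3376, 5136 and 889 CPM. Higher in AlbuMAX I alone were 7 miRNAs, of which miR-547-3p, an X-linked miRNA, was the most abundant, with 105, 106 and 278 CPM. None of the 7 stayed in this class after centring.

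Markers of other cell types gave no common direction. By CPM both endothelial miRNAs were near T6, with miR-126a-5p at 149, 124 and 166 CPM. After centring their median log2 ratio was 0.81 in each culture. Of the 3 leukocyte miRNAs measured, miR-142a-5p had 114, 55 and 72 reads, miR-150-5p had 49, 0 and 6, and miR-342-3p had 54.6, 44.4 and 129 CPM. The muscle miRNA miR-133a-3p had 312, 257 and 93 reads. The 10 miRNAs known from smooth muscle and fibroblasts summed to 107416, 214637 and 159291 CPM, and miR-143-3p alone gave 103729, 212659 and 156675 CPM of this. The other members of that list had log2 ratios from -1.80 to 0.13 in T6-12K, so the sum is that of miR-143-3p. Its neighbour miR-145a-5p had 106, 61.2 and 44.7 CPM. For the gonad itself, miR-202-5p, expressed in Sertoli and germ cells, had 173, 86.2 and 120 CPM and was present in each library. The part of a changed cell makeup in the results was not tested.

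In 71 hairpins with both arms listed, the arms had the same direction by CPM in 66 in T6-12K and in 63 in T6-12A. Most miRNAs were lower by CPM (263 of 329 in T6-12K and 239 of 329 in T6-12A), and after centring the arms had the same direction in 53 and 44 hairpins. In some hairpins the arms differed widely. miR-296-3p went from 212 reads to 0 and 26, while miR-296-5p went from 63 to 41 and 46. miR-339-3p had log2 ratios of -2.43 and -2.55 and miR-339-5p 1.85 and 0.56. Base composition followed the change little: over 286 matched miRNAs, Spearman's rho of GC content with the log2 ratio was -0.09 in T6-12K and -0.17 in T6-12A, a description over miRNAs of the same libraries.

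The shared changes were set against testes of 10.5 dpp cultured for 12 days in the same media (T10-12K and T10-12A against T10), which share no library with those above. Of the 27 miRNAs higher in both media from 6.5 dpp, 26 were higher in both from 10.5 dpp (96.3%, against 20.4% of all 329 miRNAs), and 19 passed 2-fold in both, which is 70.4% of the 27 and 73.1% of the 26 miRNAs so called at 10.5 dpp (7.90% of all). Of the 106 lower miRNAs, 101 were lower in both (95.3%, against 72.3%), and 73 passed 2-fold in both, which is 68.9% of the 106 and 68.2% of the 107 so called at 10.5 dpp (32.5% of all). These counts are by CPM. With centred values, 38 of the 50 higher miRNAs passed 2-fold in both at 10.5 dpp (76.0%, against 15.2% of all). Of the 44 lower ones 34 did (77.3%, against 16.7% of all). Over the 113 miRNAs of 100 CPM or more, the mean log2 ratios of the 2 ages had a Spearman's rho of 0.885, a description over miRNAs. The exception among the higher ones was miR-30f, with 13, 84 and 110 reads in T6, T6-12K and T6-12A and log2 ratios of -0.57 and -2.81 at 10.5 dpp. miR-375-3p had log2 ratios of 3.17 and 2.67 at 10.5 dpp, miR-423-5p -2.67 and -2.65, and miR-381-3p -2.98 and -3.27.

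Among the abundant changes in one medium, those of miR-10a-5p and miR-486 and of the X-linked cluster had other values at 10.5 dpp. miR-10a-5p had log2 ratios of 0.31 in T10-12K and 0.02 in T10-12A, and miR-196b-5p -0.29 and -0.63. miR-486a-5p was lower in both cultures, with -1.39 and -0.95. The X-linked cluster had medians of -1.05 and -1.10, near each other where those from 6.5 dpp were -1.79 and -0.32. With 1 library for each age and medium, whether the media differ by age was not tested.

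**Figure D5:**
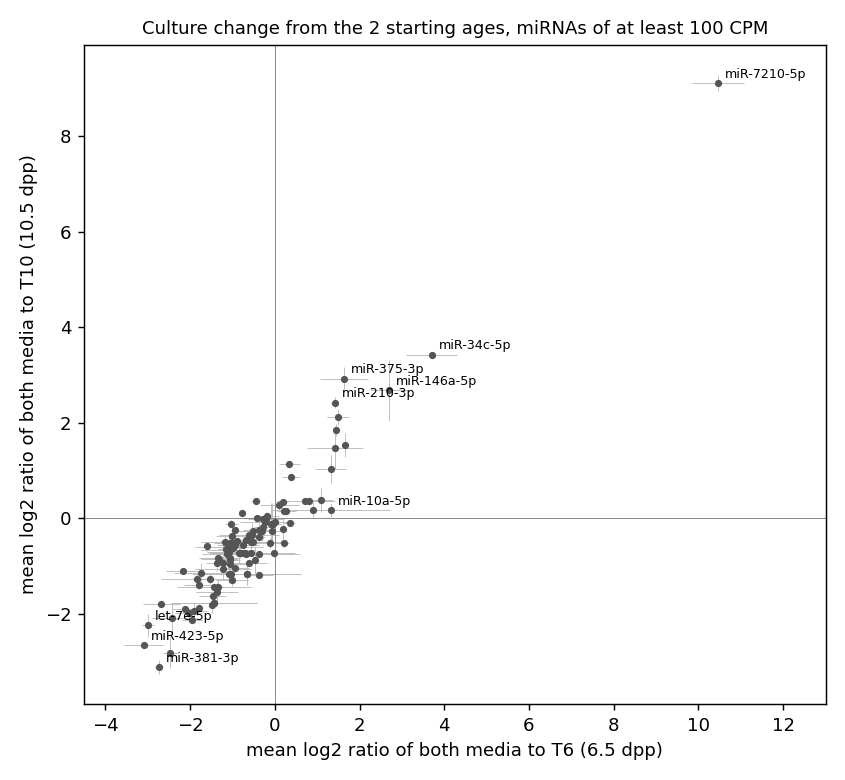
Mean log2 ratio over both media to T6 (x axis) and to T10 (y axis) for the 113 miRNAs of 100 CPM or more; grey bars span the values of the media. miR-7210-5p and miR-34c-5p are at the upper right, let-7e-5p, miR-423-5p and miR-381-3p at the lower left, and miR-10a-5p has a wide bar on the x axis and lies near 0 on the y axis.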

How the data were processed

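Small RNA libraries were sequenced from the testes described above. According to the methods, adaptors were trimmed, reads were checked with FastQC and aligned with Bowtie to mm10 and then to miRBase. The submitters' processing notes also name HTSeq and DESeq. The authors deposited a signal for each of 331 mature miRNAs and each of 7 libraries, in which reads are scaled by a library-wide factor. The per-library tables equal the series table in 7 of 7 libraries. How reads that match several miRNAs were counted is not given in the sources used here. The signal of a single read was derived for every library from the spacing of its low values, and 100% of the values below 10000 reads were then whole within 0.1 read. CPM is scaled to the reads on listed miRNAs, which numbered 9934580 to 13363594 in the 3 libraries compared. The design had assumed read counts. Without replicates, no model of counts was run.

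Values at 0 were set to 5 reads, and no ratio was given where both values were at or under 5 reads (3 miRNAs). Intervals are 95% exact intervals of the share of reads, for counting error only, since reads are PCR copies. The steps were tested on simulated data. Named miRNAs were those with the largest shared change (10 in each direction) or change in one medium (5 in each) where the mean reached 100 CPM, the 10 most abundant of T6, list members, other arms, and miRNAs at 0 in one library with at least 50 reads in another. Further miRNAs, among them miR-3074-5p, miR-339-3p, miR-138-5p and miR-30f, were named after their values were seen. The members and the 27 lists were chosen with earlier results of these data known. Alternatives covered the scaling (median-of-ratios, trimmed mean of M-values with 30% of M and 5% of A trimmed, values as deposited, and the sum without miR-10b-5p), a filter at a mean of 100 CPM, a pseudocount of 1 CPM, a 1.5-fold threshold and each culture alone. Hairpin positions come from GENCODE M21 on GRCm38. Tools were scipy 1.17.1, pandas 2.3.3, numpy 2.4.6 and matplotlib 3.10.9 on Python 3.11.15.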

Additional observations from a re-analysis of the deposited data

Results flagged for a closer look

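In 7 named or listed miRNAs the cultured libraries lay on opposite sides of T6 by CPM and under each of the 4 other scalings. Each had at least 50 reads in a library and at least 1 culture past 2-fold by CPM. Their counting intervals excluded 0 where the ratio was not a bound. The difference was not tested, since each medium had 1 library. The log2 ratio of T6-12A to T6-12K was -4.15 for miR-196b-5p, -5.50 for miR-205-5p (a bound, with 0 reads in T6-12A), -2.52 for miR-486a-5p and -2.54 for miR-486b-5p, whose reads cannot be told apart. The X-linked miRNAs lay the other way, with 1.41 for miR-470-5p, 1.93 for miR-743b-3p and 1.55 for miR-881-3p. No sample was compared with its own replicates, since there were none.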

How the results depend on the processing

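The counts moved mainly with the scaling. Median-of-ratios factors gave 50 miRNAs higher and 44 lower in both media in place of 27 and 106, and the trimmed mean of M-values gave 50 and 45. In one medium, they gave 14 and 12 lower in KSR (35 by CPM), 3 and 3 higher in AlbuMAX I (7) and 18 and 21 lower in AlbuMAX I (11). With the values as deposited, 4 were higher in AlbuMAX I. The median log2 ratio of T6-12K, -1.15 by CPM, was 0.02 and 0.01 with those factors, -0.82 as deposited and -0.91 without miR-10b-5p. That of T6-12A, -0.62 by CPM, was 0.03, -0.06, -0.54 and -0.45. The 2 factors also turned the T6-12K ratio of miR-99b-5p to 0.14 and 0.13 and that of miR-181a-5p to 0.13 and 0.12. Limiting the list to a mean of at least 100 CPM tests fewer miRNAs and left 8 higher and 20 lower in both media, 1 higher and 12 lower in KSR, 1 higher and 2 lower in AlbuMAX I, and medians of -1.03 and -0.43. With a single culture, 36 to 41 miRNAs were higher and 125 to 188 lower. Of 74 ratios of 37 named miRNAs, 63 kept their direction with median-of-ratios factors, 64 with the trimmed mean, and 73 with each of the others. No paired analysis was possible because each condition had 1 library and the labels give no replicate numbers. Depth limits miRNAs near 5 reads, which equal 0.374 CPM in T6, 0.503 CPM in T6-12K and 0.463 CPM in T6-12A, and these intervals hold no spread between testes.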

Other observations

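Some miRNAs on no list also changed at lower levels. miR-1247-5p had 25 reads in T6, 120 in T6-12K and 218 in T6-12A. It is encoded in an exon of Dio3os at the Dlk1-Dio3 locus (chr12:110278048-110278129, minus strand) but is not on the list of that cluster. The 38 listed members were all below T6 by CPM, as were most of all miRNAs. miR-6240 had 14, 183 and 34 reads and was the shared rise with the largest lead of T6-12K over T6-12A, at a log2 ratio of -2.55 for T6-12A to T6-12K (counting interval -3.12 to -2.01). miR-190b-5p had 5, 22 and 14 reads, and its interval in T6-12A, 0.24 to 3.62, reached well under 2-fold. Higher by CPM in T6-12A alone were miR-201-5p, with 359, 332 and 1014 reads, and miR-760-3p, with 20, 11 and 73. Neither stayed in this class after centring, where miR-201-5p was at least 2-fold higher in both media. By CPM in T6-12K alone, miR-342-5p was low, with 231, 31 and 181 reads, as was miR-330-5p, with 181, 33 and 112. After centring, miR-342-5p stayed in this class, while the fall of miR-330-5p in T6-12K was under 2-fold. These miRNAs were named after their values were seen.

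Among the shared rises, 17 of 27 had counting intervals past 2-fold in both media, and 4 were bounds because T6 was at 0. Among the shared falls, 62 of 106 had such intervals and 13 were bounds.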
